A study of Mus musculus with 185 samples.

Results

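Cytosolic ribosomal protein genes were examined in single epidermal Langerhans cells (LCs), the antigen-presenting phagocytes of the epidermis. The set holds the genes of the proteins of the cytosolic ribosome, taken by name: symbols made of Rpl or Rps, a number and at most a final a or x, with the stalk genes Rplp0, Rplp1 and Rplp2, with Rpsa, and with the paralogs Rpl7l1 and Rpl22l1. This gave 78 of the 45661 genes listed, of which 48 have Rpl names and 30 have Rps names. Rps3a1, Fau and Rack1, whose products also sit on or near the ribosome, fall outside this spelling. Rows named as processed copies (-ps) were left out.

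The cells came from bone marrow chimeras (BMC), in which lethally irradiated CD45.1 Cd207DTR hosts carried CD45.2 wild-type (WT) bone marrow and had received 5 ng of diphtheria toxin (DT) per gram of body weight. The epidermis was taken 2 months after DT. Monocyte-derived LCs (moLCs) are donor cells, and embryonic LCs (eLCs) are host cells that were still there after DT. Cd207DTR mice express the DT receptor from the Cd207 locus, so only eLCs carry that allele, and cells of both origins lived in irradiated, DT-treated hosts. Cells were sorted singly as lineage-negative CD11c+ CD11b+ CD24+ MHCII+ CD326+ cells, and their origin was read from the congenic marker. Because no animal is named, an origin counts as 1 sample. Cells are not replicates, and no test was made between origins or plates. Intervals are at 95% and cover counting error only.

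After 3 moLCs of plate 2 with more than 5% of reads on mitochondrial (mt-) genes were left out, 182 cells remained. Of the moLCs, 67 were on plate 1 and 36 on plate 2, and of the 79 eLCs, 29 were on plate 1 and 50 on plate 2. The median depth was 2948819 gene reads per moLC and 2779080 per eLC. The LC marker list summed to 237807 counts per 1000000 gene reads (CPM) in moLCs and to 219035 in eLCs, and all 10 of its genes were read. The log2 ratios of moLCs over eLCs of these 10 genes ran from -0.26 to 3.60, with a median of -0.02. No keratinocyte, T cell, monocyte, melanocyte or dermal DC1 marker had a read in 25% of the cells of either origin. The 10 keratinocyte markers summed to 27.9 CPM in moLCs and 5.40 in eLCs, with 3 of 10 at 0, and the 5 DC1 markers to 18.6 and 31.6 CPM, with 1 at 0. The 9 T cell markers summed to 0.110 and 0.413 CPM, with 7 at 0. The 7 monocyte markers summed to 0.140 and 0.0138 CPM, with 3 at 0, and the 5 melanocyte markers to 0.633 and 0.0689 CPM, with 4 at 0.

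The cytosolic ribosome joins a small subunit, which reads the mRNA, to a large subunit, which forms the peptide bond. Nearly every ribosomal protein is present once per ribosome, so its genes are expressed together and strongly in most cells. Many of these mRNAs begin with a C followed by a run of pyrimidines, the terminal oligopyrimidine (TOP) element, through which mTOR and Larp1 adjust their translation. When ribosome assembly is disturbed, free Rpl5 and Rpl11 bind Mdm2 and stabilize p53.

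Start sites are shown first because the TOP element lies at the start of the mRNA. RefSeq start sites of GRCm38.p6 were matched for 58 of the 78 members, with 68 windows of 300 bases. A run of at least 8 pyrimidines within 25 bases of the start, read on the strand of the gene, was present in 32 of 68 windows (47.1%), against 19.7% of all 32851 windows and 19.3% of the 21263 windows of coding genes. Over the whole window and both strands, CCGGAAG, the core letters bound by ETS factors, was found in 35.3% of member windows. It was found in 8.86% of all windows and 11.6% of the windows of coding genes. AAGATGG, the core letters bound by YY1, was found in 17.6% of member, 6.34% of all and 6.24% of coding windows. TATAAA, letters bound by TBP, was found in 10.3%, 13.6% and 12.6%. A match is a description of the letters and not of a bound site. A pyrimidine run could lie wholly before the start, as in Rps25 below. It did not have to begin with a C at the start, so it is not a count of TOP elements. Below are 40 bases of each start, 25 before it and 15 from it on, 5′ to 3′ on the strand of the gene, with pyrimidine runs of at least 8 in capitals. The first 8 hold a run near the start, and they include a stalk gene, the mTOR pathway substrate Rps6 and 3 members whose ratios are given below.
Rpl7a, chr2:26910782-26910821, plus strand: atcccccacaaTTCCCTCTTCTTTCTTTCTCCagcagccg
Rpl27a, chr7:109519170-109519209, plus strand: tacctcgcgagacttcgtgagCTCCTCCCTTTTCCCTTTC
Rpl15, chr14:18270972-18271011, minus strand: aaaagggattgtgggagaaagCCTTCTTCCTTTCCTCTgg
Rps25, chr9:44407689-44407728, plus strand: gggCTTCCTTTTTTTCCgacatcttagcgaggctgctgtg
Rpl14, chr9:120571492-120571531, plus strand: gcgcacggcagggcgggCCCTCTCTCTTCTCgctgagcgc
Rplp2, chr7:141447626-141447665, plus strand: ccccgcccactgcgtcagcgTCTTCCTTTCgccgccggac
Rps6, chr4:86857353-86857392, minus strand: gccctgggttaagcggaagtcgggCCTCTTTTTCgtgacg
Rps27, chr3:90213634-90213673, minus strand: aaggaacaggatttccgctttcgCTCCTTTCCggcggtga
The next 4 hold no such run in these 40 bases. They are Rpl7l1, the member with the largest difference between origins, Rpl24, the member with the lowest level, and Rplp0 and Rpl10, the members that varied least over cells.
Rpl7l1, chr17:46782642-46782681, minus strand: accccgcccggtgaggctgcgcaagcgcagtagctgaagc
Rpl24, chr16:55966250-55966289, plus strand: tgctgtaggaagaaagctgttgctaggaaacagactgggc
Rplp0, chr5:115559442-115559481, plus strand: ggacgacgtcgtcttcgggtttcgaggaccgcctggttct
Rpl10, chrX:74270791-74270830, plus strand: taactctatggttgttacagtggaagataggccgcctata

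Ribosomal protein genes took a median of 2.08% of the gene reads of a cell, with a range of 1.02% to 7.97% over 182 cells. The median was 2.07% in moLCs (SD 0.946) and 2.12% in eLCs (SD 0.888, n = 79 cells). Cells ranged from 1.02% to 7.97% in moLCs and from 1.11% to 4.76% in eLCs. Apart from 2 moLCs, at 5.84% and 7.97%, the upper ends of the ranges were close, and the origins overlapped. The difference between origins changed direction between plates. On plate 1 the median was 2.01% in moLCs and 1.80% in eLCs, a difference of 0.205 percentage points. On plate 2 it was 2.18% in moLCs and 2.46% in eLCs, a difference of -0.278 percentage points. Each of these differences was smaller than the SD over the cells of either origin on that plate, which was 0.605 and 0.505 on plate 1 and 1.34 and 0.990 on plate 2. Summed over cells, the share was 2.19% in moLCs (2.188 to 2.191) and 2.29% in eLCs (2.285 to 2.289). The origins were unevenly spread over the plates, so pooled medians and sums also carry the plate mix. Rpl genes took a median of 1.26% of reads in moLCs and 1.27% in eLCs, and Rps genes took 0.801% and 0.842%.

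**Figure D1:**
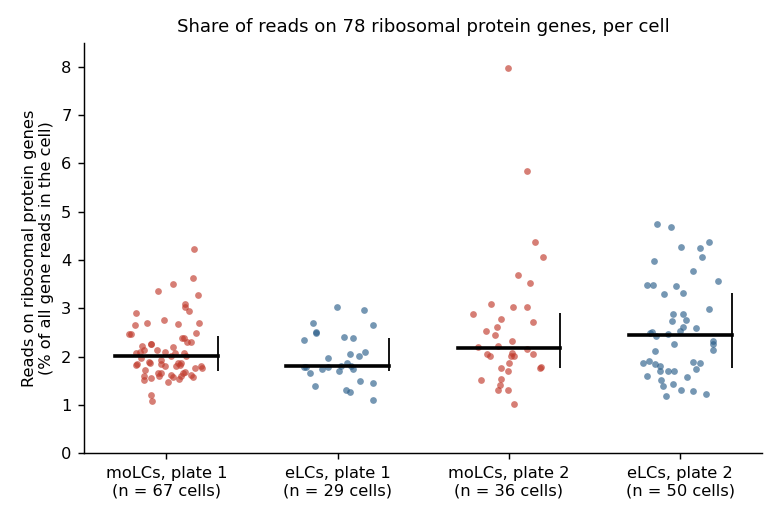
Share of gene reads on the 78 ribosomal protein genes, 1 point per cell, by origin and plate. The thick bar is the median, the thin line the interquartile range. The medians are 2.01% and 1.80% on plate 1 and 2.18% and 2.46% on plate 2, and the clouds of points overlap on both plates.

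Both cells with the highest share, 7.97% and 5.84%, were moLCs of plate 2. The cell at 7.97% had 3.39% of its reads on mt- genes. The 3 moLCs above the mitochondrial limit had shares of 3.57%, 2.91% and 2.77%, and reads on 73, 46 and 76 of the 78 members. Over the 182 cells, the ribosomal protein share had a Spearman correlation of 0.55 with the share of mt- reads, with values of 0.09 to 0.74 within the 4 groups of origin and plate. With total reads the correlation was -0.41, from -0.53 to 0.16 within groups. With the number of genes read it was -0.03. Mitochondrial share and ribosomal share are parts of the same total of reads, and the part of either measure in the differences between plates was not tested. The median mt- share was 0.914% in moLCs and 0.815% in eLCs of plate 1, and 1.20% and 1.46% on plate 2, so the order of the 4 groups was the same for both shares.

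**Figure D2:**
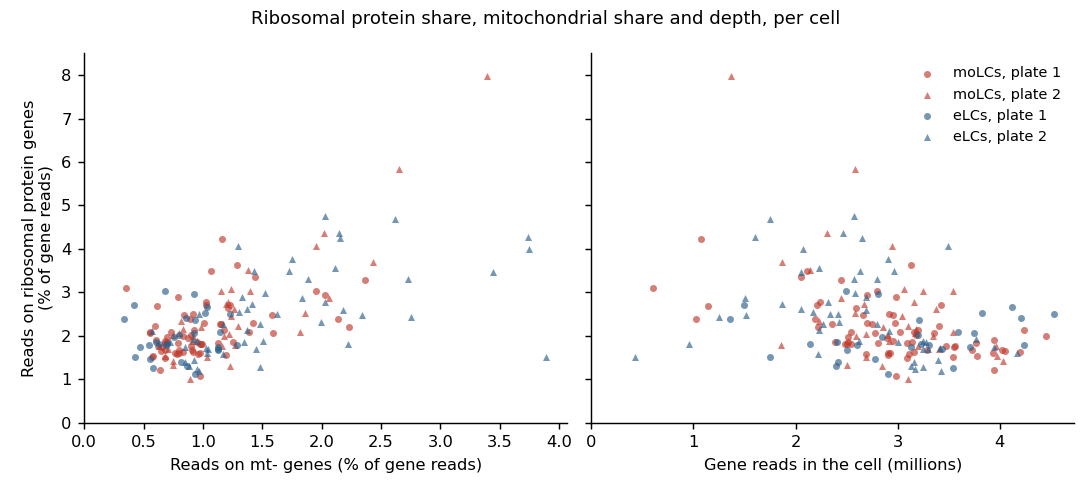
Ribosomal protein share of each of 182 cells against its share of reads on mt- genes (left) and its number of gene reads (right). Colour gives the origin and marker shape the plate. Spearman correlations over all cells are 0.55 on the left and -0.41 on the right.

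Levels between members were compared as CPM per kilobase, with the median length of the basic coding transcripts of GENCODE M21 as length. The median member stood at 296 CPM per kilobase. Among the highest were Rplp0 with 1103 CPM per kilobase, Rps27 with 913 and Rpl13 with 890. Rplp0 is the protein on which the stalk dimers of Rplp1 and Rplp2 are mounted, and Rplp1 and Rplp2 stood at 622 and 544 CPM per kilobase. The 5 lowest were Rpl24 with 10.8, Rps15a with 26.6, Rpl22 with 31.9, Rpl23a with 39.5 and Rpl5 with 52.5. Of the exon length of Rpl24, 46.99% is shared with Gm28037 on the same strand, a gene listed at 0 reads. Rpl23a shares 59.7% of its exon length with Tlcd1 on the opposite strand, and its 14 -ps rows held reads equal to 5.80% of its own. The part of shared exons and copies in these low values was not tested. The median coding transcript of Rps15a was 5130 bases long, while that of the median member was 772.5 bases. With the union of exons as length, the order of the 78 members had a Spearman correlation of 0.82 with the order above, and Rplp0, Rplp1 and Rpl36 were among the highest.

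The order was close to the same in both origins. Across the 78 genes, CPM per kilobase in moLCs and in eLCs had a Spearman correlation of 0.99, which is across genes that share libraries and lengths. In CPM, the 5 most read members took 21.5% of all member reads. Rplp0 led at 1434 CPM in moLCs against 1586 in eLCs.

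**Figure D3:**
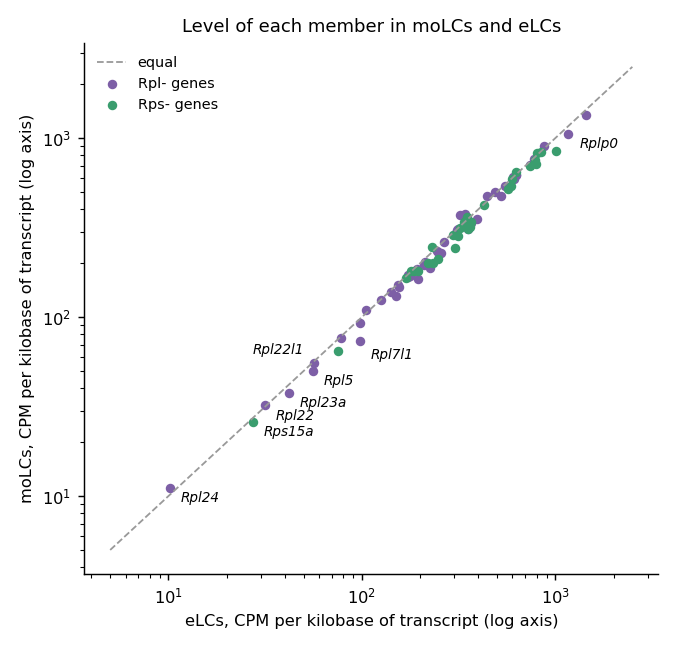
CPM per kilobase of each of the 78 members in moLCs against eLCs, both on log axes, with Rpl and Rps genes in 2 colours. The points run along the line of equal levels, with Rpl24 at 10.8 and Rplp0 at 1103 CPM per kilobase over all cells, and Rpl7l1 lies below the line.

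Members were read in nearly every cell. At least 1 read was found in all 182 cells for 62 members, and in at least 90% of cells for 76. A median cell had reads on all 78 members, and the lowest had 73. The 2 members under 90% were the paralogs Rpl7l1, without a read in 28 cells, and Rpl22l1, without a read in 25 cells. Rpl22l1 had a read in 87.4% of moLCs (79.4 to 93.1), while the share was 84.8% of eLCs (74.97 to 91.9). With equal depth, 2052512 reads drawn from each cell and 7 shallower moLCs and 12 shallower eLCs dropped, these shares were 87.5% and 88.1%. Its parent Rpl22, which binds RNA on the outside of the large subunit, had reads in 96.1% of moLCs against 92.4% of eLCs.

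Members varied less over cells than other widely read genes. The coefficient of variation (CV) of CPM over cells had a median of 0.639 over the 76 members read in at least 90% of cells, and of 0.763 over the 766 other genes read as widely. Among these 76 members, the lowest CVs were those of Rplp0 (0.366), Rpl10 (0.383), which completes the large subunit late in its assembly, and Rps2 (0.399). The highest among them were those of Rpl36a (1.0), Rps27a (0.880) and Rpl22 (0.853). The less widely read paralogs Rpl22l1 and Rpl7l1 had CVs of 1.09 and 0.893. Rps27a is made as a fusion with ubiquitin. Its level in single cells ran from 23.3 CPM to 2718 CPM in moLCs around a median of 217 CPM, and from 42.4 to 881 CPM in eLCs around a median of 253 CPM. The SD of Rps27a was 279 CPM in moLCs around a mean of 263, and 163 CPM in eLCs around a mean of 273. The single moLC at 2718 CPM adds much of the spread in moLCs. The CV fell with the level, with a Spearman correlation of -0.76 between CPM and CV across the 78 members. The set and the other genes were not compared at matched levels, so the part of level in the lower CV was not tested.

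Members rose and fell together from cell to cell. The median Spearman correlation between pairs of members over cells was 0.28 in moLCs of plate 1 (n = 67 cells), 0.29 in eLCs of plate 1 (n = 29), 0.51 in moLCs of plate 2 (n = 36) and 0.51 in eLCs of plate 2 (n = 50). Pairs of other widely read genes had medians between 0.005 and 0.016 in the same 4 groups, and pairs of a member with another gene had medians between -0.002 and 0.057. All of these pairs share the total of each cell. Between 93.5% and 99.9% of member pairs were above 0. Rpl13, Rpl32 and Rpl37a followed the other members most closely, with mean correlations of 0.51, 0.51 and 0.50 over the 4 groups. Rpl5, Rps2 and Rpl12 followed them least, with 0.22, 0.26 and 0.26.

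The main comparison asked whether ribosomal protein genes differed between donor-derived and host LCs. Differences were small and mostly within 0.25 on the log2 scale. The log2 ratio of moLCs over eLCs of summed CPM lay between -0.41 (Rpl7l1) and 0.20 (Rpl3), and 74 of 78 members were within 0.25 of 0, where 47% of the 6522 genes read in 25% or more of moLCs or of eLCs, called commonly read below, and 69.7% of the 842 genes read in at least 90% of cells, called widely read, also lay. The median ratio was -0.06 over members and -0.10 over the commonly read genes, with 62 members below 0 and 16 above, but with edgeR's TMM factors, which add 0.10 to every ratio, the median was 0.04 and 51 members were above 0. The median was 0.08 on plate 1, with 57 members above 0, and -0.04 on plate 2, with 28 above 0. Most moLCs were on plate 1 and most eLCs on plate 2, where most members were higher, so pooled ratios also carry the plate mix. For the summed member reads the log2 ratio was -0.06 pooled, 0.05 on plate 1 and -0.03 on plate 2. A pooled ratio can lie outside its 2 plate values, as for Rpl15, Rpl14 and Rps4x below. In all, 9 members were higher in moLCs in all cells and on both plates, beside 19.5% of commonly read genes, and 14 were lower, beside 33.7%. For the 78 members these counts are shares of 11.5% and 17.9%.

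Members past 2 sizes of difference were counted, where the pooled ratio and the ratio on each plate all had to pass with 1 sign. These sizes are not tests. The larger size, 2-fold, was passed by 0 members, beside 2.02% of commonly read genes (0.813% higher and 1.21% lower in moLCs) and 0.119% of widely read genes. The smaller size, a log2 ratio of 0.32, was passed by 1 member, Rpl7l1, which was lower in moLCs. Of commonly read genes 18.3% passed, 6.47% higher and 11.9% lower in moLCs. Of widely read genes 5.11% passed, 2.14% higher and 2.97% lower.

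**Figure D4:**
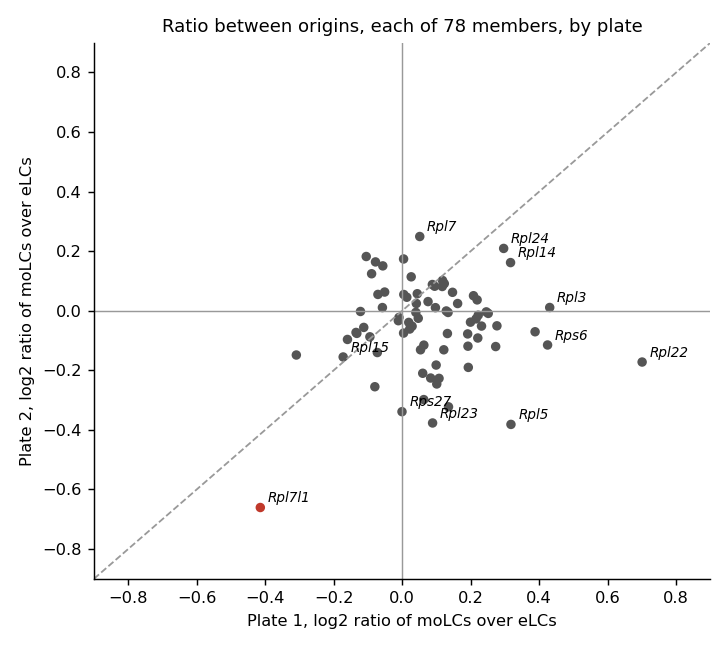
Log2 ratio of moLCs over eLCs on plate 1 and plate 2 for each of 78 members. The dashed line marks equal ratios. Most points lie within 0.25 of 0 on both axes, and Rpl7l1, in red, is at -0.41 on plate 1 and -0.66 on plate 2.

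Rpl7l1 is a paralog of Rpl7, the large subunit protein that touches 5S rRNA. The gene (ENSMUSG00000063888) lies on the minus strand at chr17:46773907-46782672. Its level over all moLCs was 143 CPM against 191 over all eLCs, which is a log2 ratio of -0.41 (-0.43 to -0.39). In single moLCs it ran from 0 to 540 CPM with a median of 114, and in single eLCs from 0 to 698 CPM with a median of 146, so the cells of the origins overlapped over most of their range. The summed level on plate 1 was 161 CPM in moLCs against 215 in eLCs, and on plate 2 it was 110 against 174. A read was found in 85 moLCs (82.5%, 73.8 to 89.3) and in 69 of 79 eLCs (87.3%, 77.95 to 93.8). On plate 1 it was read in 82.1% of moLCs and every eLC, and on plate 2 in 83.3% of moLCs and 80% of eLCs. Leaving out 1 eLC of plate 1 with 506 CPM brought the ratio on that plate to -0.31, under the smaller size. With TMM factors 0 members passed that size, and the pooled ratio of Rpl7l1 was -0.31. Rpl7 itself stood at 552 CPM in moLCs against 518 in eLCs, with a log2 ratio of 0.09 (plate 1 0.05, plate 2 0.25).

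Other large ratios below 0 belonged to Rpl23, Rpl15 and Rps27. Rpl15, of the large subunit, stood at 158 CPM in moLCs against 189 in eLCs, with a log2 ratio of -0.25 (plate 1 -0.17, plate 2 -0.16). The pooled ratio of Rpl15 lay beyond both plate values because it also carries the uneven plate mix. Single moLCs ran from 11.7 to 816 CPM with a median of 149, and single eLCs from 11.1 to 463 CPM with a median of 176. The cells of the origins overlapped over most of this range. For Rpl23 the pooled ratio of -0.25 held 0.09 on plate 1 and -0.38 on plate 2. For Rps27 the pooled ratio of -0.24 held -0.0006 on plate 1 and -0.34 on plate 2.

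The largest ratios above 0 belonged to Rpl3, Rpl14, Rpl24, Rpl7 and Rps6. Rpl3, which reaches close to the site of peptide bond formation, stood at 501 CPM in moLCs against 437 in eLCs, with a log2 ratio of 0.20. Single moLCs ran from 2.68 to 1383 CPM with a median of 486, and single eLCs from 68.1 to 1484 CPM with a median of 407. Its ratio was 0.43 on plate 1 and 0.01 on plate 2. Rpl14 stood at 380 against 344 CPM with a ratio of 0.14 (plate 1 0.32, plate 2 0.16). Rpl24, which forms a bridge between the subunits, stood at 7.55 against 6.92 CPM with a ratio of 0.12 (0.03 to 0.22), and was at 0 in 3 cells. Rps6, the substrate of the S6 kinases, stood at 215 against 203 CPM with a ratio of 0.08, with 0.42 on plate 1 and -0.11 on plate 2.

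Members of the stalk and of the 5S particle showed pooled ratios of the same small size. Rplp0 had a ratio of -0.15 (plate 1 -0.16, plate 2 -0.10), with a median of 1395 CPM in single moLCs and 1543 CPM in single eLCs. Rplp1 and Rplp2 had ratios of -0.02 and -0.04. Rpl5 and Rpl11, the partners of 5S rRNA, had ratios of -0.16 and -0.04. The ratio of Rpl5 was 0.32 on plate 1 and -0.38 on plate 2.

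Among small subunit proteins, Rpsa, which is also known as the laminin receptor, had a ratio of -0.05. Rps3, at the mRNA entry channel, had -0.09. Rps19, mutated in Diamond-Blackfan anemia, had -0.06, Rps2 had -0.12, and the ubiquitin fusion Rps27a had -0.11. Among large subunit proteins, Rpl10 had -0.02. Rpl38, needed for translation of some Hox mRNAs, had -0.06. Rpl13a, which leaves the ribosome in interferon-treated myeloid cells to silence mRNAs, had -0.13. Rpl41, the shortest ribosomal protein, had -0.06, and Rpl36a had 0.06.

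The paralogs gave uneven values. Rpl22 stood at 65.8 CPM in moLCs against 64.8 in eLCs, with a pooled ratio of 0.02 that held 0.70 on plate 1 and -0.17 on plate 2. Rpl22l1 stood at 29.8 against 30.6 CPM with a ratio of -0.03, with 0.27 and -0.12 on the plates. Rps27l stood at 152 against 200 CPM with a ratio of -0.40, with 0.23 on plate 1 and -0.79 on plate 2. Rpl36al stood at 114 against 136 CPM with a ratio of -0.26, with -0.05 and -0.20. Rpl3l was read in 3 moLCs and no eLC, and Rpl39l in 3 eLCs and no moLC, while Rpl39 stood at 89.8 CPM in moLCs against 95.1 in eLCs. Rpl10l had no read in any cell, and Rps27rt had 1.59 and 2.13 CPM. Rps4l, a copy of Rps4x, had reads in 2.91% of moLCs against 53.2% of eLCs, at 7.16 against 82 CPM and a log2 ratio of -3.52 (plate 1 -5.68, plate 2 -2.43). Rps4x itself stood at 311 CPM in moLCs against 354 in eLCs, with a ratio of -0.19 (plate 1 -0.12, plate 2 -0.002). For Rps4x and Rpl36al the pooled ratio lay beyond both plate values, as it also carries the uneven plate mix. Of this list of 7 paralogs outside the naming rule, 4 were commonly read, and their median ratio was -0.41. Of the 4, 1 passed the 2-fold size, beside 2.02% of commonly read genes, and it was Rps4l. Rps4l was commonly read only through eLCs, the origin where it was higher, so this count and the median partly follow from that filter. How the counting divided reads between these copies is not given in the sources used here.

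Members differed more between plates than between origins. On plate 2, 73 of 78 members were higher than on plate 1 in both moLCs and eLCs, beside 32.5% of commonly read genes and 44.2% of widely read genes. Past the smaller size, 0.32, in both origins were 26 members, beside 11.9% of commonly read genes and 12.4% of widely read genes. The median log2 ratio of plate 2 over plate 1 was 0.28 in moLCs and 0.42 in eLCs, and over commonly read genes it was 0.05 and 0.07. Rps15, of the small subunit, stood at 0.85 in moLCs and 0.73 in eLCs. Rpl22 stood at 0.26 and 1.13, and Rpl5 at 0.05 and 0.75. Rpl7l1 and Rpl4 were lower on plate 2 in both origins, Rpl7l1 with ratios of -0.55 and -0.30 and Rpl4 with -0.08 and -0.06. Rpl3, Rps29 and Rps6 were lower in moLCs and higher in eLCs. The plate was read from the well names in the labels. Whether it also marks other animals is not given, so plates and animals cannot be told apart. Rps15, Rpl4, Rps29, Rpl12, Rpl32, Rpl37a and Rpl36 were named after their values were seen.

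**Figure D5:**
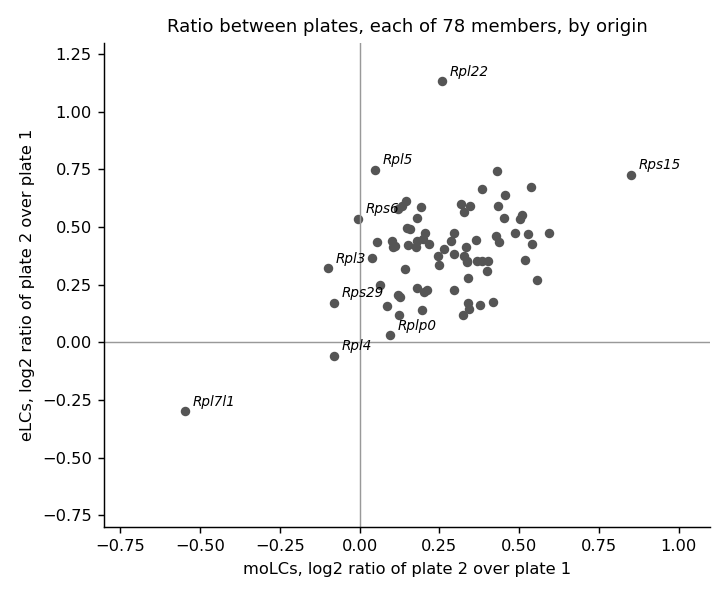
Log2 ratio of plate 2 over plate 1 in moLCs and in eLCs for each of 78 members. The upper right part holds 73 members, and Rpl7l1 and Rpl4 are in the lower left.

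The rest of the translation machinery was set beside the members. Beside each count in this paragraph and the next, 18.3% of commonly read genes passed the smaller size in either direction. Fau, which encodes a ribosomal protein fused to a ubiquitin-like protein, had a ratio of -0.05 and did not pass the smaller size. Rack1, the receptor on the small subunit head, stood at 385 against 364 CPM with a ratio of 0.08 that held 0.33 on plate 1 and -0.09 on plate 2. Of 6 elongation factors 0 passed and the median ratio was 0.005, with Eef1a1, which delivers aminoacyl-tRNA, at 0.15, Eef2, the translocase, at 0.07, Eif5a at -0.19 and Eef1d at -0.20. Of 26 initiation factors 1 passed, Eif6, which keeps the subunits apart, at 335 CPM in moLCs against 421 in eLCs and a ratio of -0.33. The extremes of that list were Eif1ax at -0.38 and Eif4g1 at 0.28, and its median was -0.001. Of 10 other transcripts with TOP starts 0 passed, with a median of -0.04. Gas5 stood at 0.23, Vim at 0.21, Hnrnpa1 at -0.24 and Cct4 at -0.21.

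The log2 ratios of genes that build ribosomes had an SD of 0.34, between the 0.11 of the members and the 0.53 of commonly read genes. For widely read genes the SD was 0.27. These sets were not matched by level, so the part of level in the SDs was not tested. Of 26 commonly read ribosome biogenesis genes, 2 passed the smaller size, both lower in moLCs, beside 18.3% of commonly read genes in either direction, and the median was -0.14. These were Dkc1, which modifies rRNA, at -0.70, and Wdr12, a large subunit assembly factor, at -0.56. The lowest was Nop2 at -0.72, and the highest were Nmd3, an export adaptor of the large subunit, at 0.49, and Nop58 at 0.42. Of 6 genes of rRNA transcription 0 passed, with a median of 0.007 and with Polr1c at 0.44, Rrn3 at 0.43, Polr2l at -0.20 and Polr1d at -0.15. Of 7 genes that control ribosomal protein supply 1 passed, beside the same 18.3%. It was Rps6kb1, a kinase of Rps6, higher in moLCs with 59.7 against 39.8 CPM and a ratio of 0.59 (plate 1 0.89, plate 2 0.39). The median of that list was 0.03, with Mtor at 0.12, Myc at -0.32 and Mdm2 at -0.27. Of 8 ribosome quality control genes 1 passed, again beside 18.3%. It was Gtpbp2, a rescue factor of stalled ribosomes, at -0.71. The median of these genes was -0.07, with Ascc3 at -0.76, Abce1 at 0.19 and Gtpbp1 at 0.15.

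Mitochondrial ribosomal proteins, which form the separate ribosome of mitochondria, had a lower median ratio than the cytosolic members. Of 68 commonly read genes, 35 were lower in moLCs in all cells and on both plates and 5 were higher, or 51.5% and 7.35% beside 33.7% and 19.5% of commonly read genes. The median ratio was -0.27 (plate 1 -0.19, plate 2 -0.23). The pooled median lay below both plate medians, and pooled values also carry the uneven plate mix. The smaller size was passed by 12 lower and 2 higher genes, beside 18.3% of commonly read genes in either direction. The 2-fold size was passed by 1, beside 2.02% of commonly read genes. It was Mrpl49, at 13 CPM in moLCs against 31.3 in eLCs. Mrpl1 had the lowest ratio, -1.37 (plate 1 -2.24, plate 2 -0.41), and Mrpl16 and Mrpl30 the highest, 0.59 and 0.34. Their summed level was 2415 CPM in moLCs against 2946 in eLCs. This sum had a Spearman correlation of 0.53 with the cytosolic ribosomal share over 182 cells (0.40 to 0.64 within the 4 groups of origin and plate). For summed elongation factors it was 0.18 and for ribosome biogenesis genes 0.04.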

How the data were processed

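Single-cell Smart-Seq libraries of 185 epidermal LCs were analysed. The authors aligned reads to mm10 with STAR, per the labels, and deposited unnormalized read counts for each gene in each cell. The counting tool, its strand setting and the annotation are not given in the sources used here. PCR copies are counted. The deposited columns of 8 cells held 9 values that were not whole, handled like estimated counts and rounded. CPM is a share of reads per 1000000, so amounts of mRNA per cell were not measured. Reads were summed by origin and plate and compared as log2 ratios, with exact Poisson, Clopper-Pearson or binomial intervals and a floor of 3 reads per origin. Each cell had 233438 to 4525429 reads. The 2-fold size rule was tested on simulated data, and the smaller size was not.

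The members and gene lists were chosen with earlier results of these data known. Named genes are the 5 highest and lowest members per kilobase, the 5 largest ratios each way, the 3 highest and lowest CVs, genes of known roles, paralog pairs, and up to 4 genes with the largest ratios of each list. Some genes that this rule takes, and 1 alternative gene set, are not reported here. Where a further gene is named, it passed a size rule or was picked after its value was seen. Coordinates and lengths are from GENCODE M21 (GRCm38), and start windows are from RefSeq. Python 3.11.15, numpy 2.4.6, pandas 2.3.3, scipy 1.17.1, matplotlib 3.10.9, R 4.3.3 and edgeR 4.0.16 (TMM factors only) were used.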

Additional observations from a re-analysis of the deposited data

Results flagged for a closer look

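Reads also fell on 269 rows named as processed copies (-ps) of Rpl and Rps genes, which no comparison above uses. They took 0.0121% of all reads and were flagged because they lie outside the measured set. Such rows exist for 58 members and held 62792 reads, and the largest shares relative to the parent were those of Rpl23a (5.80%) and Rpl38 (5.30%). Whether these reads come from the copies or from the parents was not tested.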

How the results depend on the processing

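No paired analysis was possible because each origin is 1 sample, the labels number wells rather than animals, and no result comes from a test. The median share per cell moved by less than 1 SD over cells under each alternative except totals without the 50 genes with the most reads, where it was 3.48% in moLCs and 3.46% in eLCs. The order of the origins turned there, after thinning (2.04% and 2.01%), at most 2.5% mt- reads (2.07% and 2.04%) and on plate 1 (2.01% and 1.80%). The SD over cells, 0.946 points in moLCs and 0.888 in eLCs, is wide and does not measure the uncertainty of a median. Both eLC plate medians, 1.80% and 2.46%, moved by less than it. The summed share, 2.19% in moLCs and 2.29% in eLCs, left its narrow counting interval under most alternatives. Values for moLCs and then eLCs were 2.06% and 1.99% on plate 1, 2.43% and 2.49% on plate 2, 2.13% and 2.21% at most 2.5% mt- reads, 2.187% and 2.291% at 1000000 reads or more per cell, 2.193% and 2.296% after thinning, 2.21% and 2.32% without mt- genes in the totals, 3.74% and 3.73% without the 50 top genes, and 2.201% and 2.300% with the -ps rows. For moLCs it was 2.194% with every cell kept and 2.192% at most 10% mt- reads. The order of the origins turned on plate 1 and without the 50 top genes.

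The median log2 ratio of the members was -0.0587, pooled over plates that the origins filled unevenly. It was -0.0452 with every cell kept, -0.0530 at most 10% mt- reads, -0.0631 at 1000000 reads or more, -0.0652 after thinning, -0.0614 without mt- genes, -0.0145 with equal weight per cell and -0.0359 on plate 2. It turned to 0.0793 on plate 1, 0.0434 with TMM factors and 0.00823 without the 50 top genes. Each cell left out in turn gave -0.0879 to -0.0357. With the 2-fold size 0 members passed under each alternative. With the smaller size 1 passed, and 0 passed with TMM factors or without 1 eLC of plate 1 (0 to 1 with each cell left out). The order of members by level had a correlation of 0.82 with the order by exon union. The single sample per origin leaves differences between animals unmeasured.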
